A study of Homo sapiens with 6 samples.

Results

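The NRF2 antioxidant response was followed through 9 genes in HSC-4, an established human cell line derived from an oral squamous carcinoma, after inhibition of γ-secretase. They were chosen by gene symbol as 9 of the 58884 genes in the count tables: *NFE2L2*, which encodes NRF2, its repressor *KEAP1*, and the target genes *NQO1*, *HMOX1*, *GCLC*, *GCLM*, *TXNRD1*, *SRXN1* and *OSGIN1*. All 9 passed the filter on low counts, by which 15001 genes were tested. Of the 6 libraries, 3 came from cells given 50 μM DAPT for 24 h and 3 were labelled control. The study's methods describe the control as the DMSO vehicle, while the count columns of these libraries carry the letters GM, which are not explained, so whether these cells received the vehicle is uncertain. DAPT blocks γ-secretase, the protease complex that frees the intracellular domain of Notch receptors and cleaves many other membrane proteins. All libraries come from 1 cell line, and the labels do not say whether replicates were separate cultures, so p-values measure only the spread between these libraries. The question was whether the genes of oxidative defence rise together with the stress response seen with DAPT in these cells.

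NRF2 is a transcription factor whose protein is made continuously and destroyed almost as fast. KEAP1 binds it in the cytoplasm and hands it to a CUL3 ubiquitin ligase, and oxidants or electrophiles that modify cysteines of KEAP1 stop this, so that NRF2 builds up, pairs with a small MAF protein and binds antioxidant response elements near its target genes. Most control of NRF2 is thus on the protein, and the transcript level of *NFE2L2* is not a measure of its activity, whereas the transcripts of its targets are commonly read as one. In squamous carcinomas the pathway is often permanently active through mutations in *NFE2L2*, *KEAP1* or *CUL3*, which were not examined here.

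The antioxidant response element is the sequence through which these genes are thought to respond, so matches to its core are shown for the promoters that hold it. The core was searched as TGACNNNGC on both strands of promoter windows from RefSeq (GRCh38.p14) that run from 250 bases before to 50 bases after an annotated start. Windows were given for 8 of the 9 genes, 11 windows in all, and for *HMOX1* none was used. A match lay in 4 of the 11 windows, belonging to 3 genes, against 13.3% of 35116 windows in the whole table. Capitals mark the 9 bases of the core, and each sequence reads 5′ to 3′ on the strand of its gene.
*GCLM* (chr1:93909445-93909474, minus strand): tacgatttctGCTTAGTCAttgtcttccag
*KEAP1* (chr19:10502783-10502812, minus strand): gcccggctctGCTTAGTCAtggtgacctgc
*TXNRD1*, downstream start (chr12:104286920-104286949, plus strand): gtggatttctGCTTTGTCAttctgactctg
*TXNRD1*, upstream start (chr12:104215670-104215699, plus strand): acacgggctaTGACTTCGCtgttgtcaccg
The cores of *GCLM* and *KEAP1* began 34 and 31 bases before their starts and were the same 9 letters, which read TGACTAAGC on the opposite strand. In *TXNRD1* they began 102 bases before the downstream start and 99 before the upstream start. A further match lay 8 bases before the upstream start of *TXNRD1* and another 54 bases before the same start of *KEAP1*. The other window of *KEAP1* and the windows of *NFE2L2*, *NQO1*, *GCLC*, *SRXN1* and *OSGIN1* did not hold these letters, which says nothing of elements farther away.

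Total counts were between 12276313 and 16317672 per library, and 3 reads, taken as the smallest signal, corresponded to 0.187 to 0.248 CPM, the count per 1000000 reads scaled with TMM factors. This floor covers counting error only. Notch target genes were listed as a check of the treatment. Of these, 5 of 5 (*HES1*, *HES2*, *HES4*, *HEY1* and *NRARP*) were lower with DAPT (edgeR, adjusted p-value under 0.05), beside 18% of all tested genes. Their log2 fold changes ran from -2.45 to -0.77. The cells carried squamous epithelial transcripts in every library, among them *KRT5* at 2701 ± 61.9 CPM with control and 1315 ± 43.4 CPM with DAPT (SD, n = 3 each). *KRT14* was at no more than 3.54 CPM, with 0 reads in DAPT replicate 2. Of 9 such markers, 6 were lower and 2 higher with DAPT (edgeR, adjusted p-value under 0.05), beside 18% and 17.2% of all tested genes. Control replicate 1 stood apart from the other 5 libraries. It held fibroblast collagen transcripts, with 215 CPM of *COL1A2* against 0.195 to 2.02 CPM elsewhere, 30.6 CPM of *COL3A1* against 0 to 0.307 CPM, and 274 CPM of *COL1A1* against 48.3 to 54.0 CPM. Of the 7 markers of other cell types besides collagens, *CD3E* and *MLANA* were at 0, *PTPRC*, *CD68* and *PECAM1* at no more than 0.217 CPM, *ALB* at 0.578 to 1.46 CPM and *PMEL* at 1.17 to 2.96 CPM. For *CD68*, 81.6% of the exonic bases lie under another gene and were not counted. In this library genes rich in G and C were also low, with a median log2 difference from the other 2 control libraries of -0.17 in the 3000 genes with the highest GC content and 0.09 in the 3000 with the lowest. The part of either in the results was not tested. DAPT replicate 1 also differed more from DAPT replicates 2 and 3 than these did from each other. The chi-square per degree of freedom between the counts of a pair was 4.12 and 3.93, beside 1.81 for replicates 2 and 3. With control replicate 1 it was 5.38 and 5.30, beside 1.58 for control replicates 2 and 3.

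Of the 9 genes, 1 rose with DAPT and 0 fell at an adjusted p-value under 0.05, the threshold for a called change, in edgeR's quasi-likelihood test. The gene was *TXNRD1*, 1.49-fold higher. Among all tested genes, 35.2% passed this threshold, 17.2% being higher and 18% lower with DAPT. The 11.1% of the 9 genes is 1 gene, so no difference from these shares is read from it. The log2 fold changes of the 9 genes had a median of 0.03, beside 0.01 over all 15001 genes. For the other 8 genes the upper end of the 95% interval of the fold change lay between 1.05 and 1.22 with all libraries, each for its gene alone. That of *HMOX1* rested on DAPT replicate 1. The DAPT values lay entirely above the control values in 3 of the 9 genes (*TXNRD1*, *NFE2L2* and *GCLC*), beside 23.6% of all tested genes, and entirely below in 0, beside 22.7%. In either direction, groups did not overlap in 46.3% of all tested genes. Without control replicate 1 the calls became 2 higher (*TXNRD1* and *NFE2L2*) and 1 lower (*SRXN1*). In that setting 2726 of all 15162 tested genes were higher and 2892 lower.

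**Figure D1:**
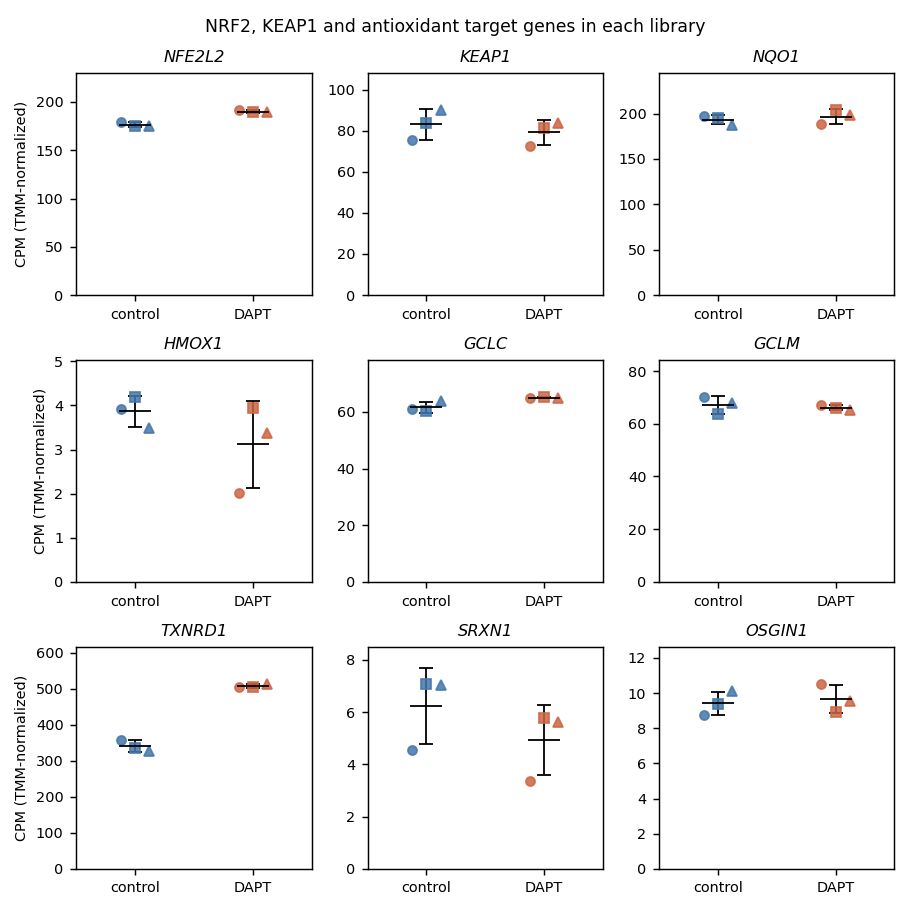
TMM-normalized CPM (y axis, from 0, a separate scale for each gene) of the 9 genes in each of the 3 control and 3 DAPT libraries. Circles, squares and triangles are replicates 1, 2 and 3, and bars give the mean and SD. The groups are far apart for *TXNRD1* (341 against 508 CPM), narrowly apart for *NFE2L2* and *GCLC*, and overlap for the other 6.

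*NFE2L2* (ENSG00000116044, chromosome 2, 177227595 to 177392697 in GRCh38) encodes NRF2 itself. It was at 179, 175 and 175 CPM in control replicates 1 to 3 and at 191, 189 and 189 CPM with DAPT. The DAPT libraries were all slightly higher, and the replicates of each group lay closer together than the groups did. The log2 fold change was 0.11 ± 0.05 (SE, 95% interval 0.01 to 0.20), which missed the threshold after adjustment over all genes (edgeR adjusted p = 0.0866, against an unadjusted p of 0.0358). Without control replicate 1 it passed, with a log2 fold change of 0.12 and an adjusted p of 0.0439 from edgeR, and the adjusted p lay between 0.0139 and 0.237 over all alternatives. Of its exonic bases, 18.6% also belong to another gene of that strand, where reads were not counted.

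*KEAP1* (ENSG00000079999, chromosome 19, 10486125 to 10503558) encodes the adaptor that marks NRF2 for degradation. It was at 75.2, 83.8 and 90.0 CPM with control and at 72.4, 81.5 and 83.5 CPM with DAPT, so the groups overlapped. Replicate 1 was the lowest library in both groups. The log2 fold change was -0.07 ± 0.07 (SE, edgeR adjusted p = 0.469). Its exons are 63.4% G and C, and after correction for GC content and exon length, added after the data were seen, the value was 0.03, on the other side of 0. Without control replicate 1 it was -0.135 (edgeR adjusted p = 0.0862), and without DAPT replicate 1 it was -0.00546. Scaled by exon length, *KEAP1* was at 0.747 ± 0.0754 times the level of *NFE2L2* with control and 0.661 ± 0.0535 times with DAPT (SD, n = 3 each). Reads on 18.6% of the exonic bases of *NFE2L2* were not counted, which raises this ratio in both groups. This ratio did not separate the groups (exact permutation test, two-sided, p = 0.3, where 0.1 is the smallest p that 3 against 3 libraries allow).

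*TXNRD1* (ENSG00000198431, chromosome 12, 104215779 to 104350307) encodes cytosolic thioredoxin reductase, a selenoprotein that passes electrons from NADPH to thioredoxin. It was at 359, 336 and 328 CPM with control and at 505, 506 and 513 CPM with DAPT. The highest control library was far below the lowest DAPT library, and the DAPT replicates differed little among themselves. The log2 fold change was 0.57 ± 0.05 (SE, 95% interval 0.47 to 0.67, edgeR adjusted p = 5.83e-09), which ranked 129 of 15001 by p. Over all alternatives the log2 fold change stayed between 0.54 and 0.62. No other annotated gene shares its exonic bases on either strand. The counts are per gene, so the 2 starts shown above cannot be told apart.

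*GCLC* and *GCLM* encode the catalytic and the modifier subunit of glutamate-cysteine ligase, which carries out the first and limiting step of glutathione synthesis. *GCLC* (ENSG00000001084, chromosome 6, 53497341 to 53616970) was at 61.0, 60.2 and 63.8 CPM with control and at 65.0, 65.2 and 64.8 CPM with DAPT. The DAPT libraries lay just above the control libraries, but the log2 fold change of 0.08 ± 0.06 (SE) did not pass the threshold (edgeR adjusted p = 0.308). *GCLM* (ENSG00000023909, chromosome 1, 93885199 to 93909456) was at 70.1, 63.6 and 67.8 CPM with control and at 67.2, 66.0 and 65.1 CPM with DAPT. Its groups overlapped, with a log2 fold change of -0.02 ± 0.06 (SE, edgeR adjusted p = 0.788) that was on the other side of 0 without control replicate 1 and when libraries were scaled by size alone. Per length, *GCLC* was at 0.577 ± 0.0265 times the level of *GCLM* with control and 0.617 ± 0.00926 times with DAPT (SD, n = 3 each). Reads on 6.12% of the exonic bases of *GCLC* were not counted, which lowers this ratio in both groups. The 3 DAPT ratios were above the 3 control ratios, which gave p = 0.1 in the exact two-sided permutation test, the smallest it can give here.

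*NQO1* (ENSG00000181019, chromosome 16, 69706996 to 69726668) encodes a quinone reductase and is among the most widely used markers of NRF2 activity. It was at 197, 195 and 187 CPM with control and at 188, 204 and 198 CPM with DAPT. DAPT replicates 2 and 3 were above the control libraries and DAPT replicate 1 lay among them, so the groups overlapped, with a log2 fold change of 0.03 ± 0.05 (SE, edgeR adjusted p = 0.729) and a 95% interval of the fold change from 0.947 to 1.09.

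*HMOX1*, *SRXN1* and *OSGIN1* had the fewest counted reads of the 9 genes and the largest standard errors. *HMOX1* (ENSG00000100292, chromosome 22, 35380361 to 35394207) encodes heme oxygenase 1, which opens the heme ring. It was covered by only 63, 58 and 42 reads with control and 31, 54 and 44 reads with DAPT, or 3.92, 4.19 and 3.48 CPM against 2.01, 3.95 and 3.38 CPM. DAPT replicate 1 was low while the other DAPT libraries lay within the control range or just under it. The log2 fold change was -0.33 ± 0.21 (SE, edgeR adjusted p = 0.239), and this value rested on DAPT replicate 1, since it was -0.08 without that library. The 95% interval of the fold change with all libraries ran from 0.587 to 1.08. This interval rested on DAPT replicate 1 as well, and the SE without that library was 0.195, so the upper end is no firm limit.

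*SRXN1* (ENSG00000271303, chromosome 20, 646615 to 653370) encodes sulfiredoxin, which restores overoxidized peroxiredoxins. It was at 4.55, 7.08 and 7.04 CPM with control and at 3.38, 5.78 and 5.61 CPM with DAPT. Replicate 1 was the lowest library of both groups, and the groups overlapped only through control replicate 1. The log2 fold change was -0.33 ± 0.21 (SE, edgeR adjusted p = 0.236) with all libraries and -0.54 (edgeR adjusted p = 0.025) without control replicate 1, with adjusted p-values between 0.025 and 0.704 over all alternatives. Without DAPT replicate 1 the value was -0.11. Another annotated gene covers 84.9% of the exonic bases of *SRXN1* on the same strand, where reads were not counted, so its counts describe a small part of the transcript.

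*OSGIN1* (ENSG00000140961, chromosome 16, 83948282 to 83966332), an oxidative stress induced growth inhibitor, was at 8.78, 9.39 and 10.1 CPM with control and at 10.5, 8.92 and 9.53 CPM with DAPT. The groups overlapped, and the log2 fold change of 0.04 ± 0.12 (SE, edgeR adjusted p = 0.8) was on the other side of 0 without control replicate 1 or DAPT replicate 1.

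**Figure D2:**
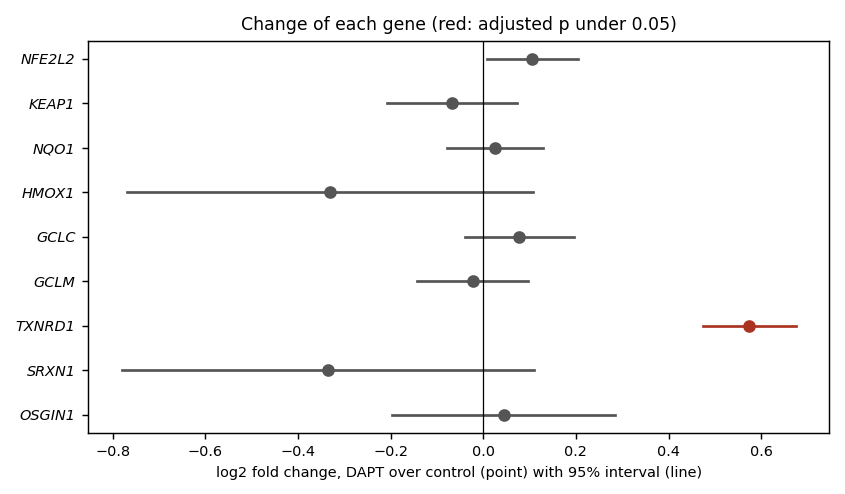
Log2 fold change of DAPT over control (x axis) for each of the 9 genes, with the estimate as a point and its 95% interval as a line. The interval of *TXNRD1*, from 0.47 to 0.67, lies above those of the other 8 genes, and the widest intervals are those of *HMOX1* and *SRXN1*.

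Levels were compared between genes as RPKM, that is CPM per kilobase of annotated exon. In control cells *NQO1* was the highest, at 65.0 ± 1.76 RPKM (SD, n = 3), followed by *TXNRD1* at 50.8 ± 2.37, *NFE2L2* at 31.1 ± 0.415, *KEAP1* at 23.2 ± 2.07, *GCLM* at 12.4 ± 0.606 and *GCLC* at 7.13 ± 0.219 RPKM. *OSGIN1* was at 2.74 ± 0.193 RPKM and *HMOX1* at 1.68 ± 0.156 RPKM. None of these neighbours overlapped between control libraries. *SRXN1* has no place in this order, because reads on most of its exonic bases were not counted. With DAPT the first 2 places changed hands, as *TXNRD1* was at 75.2 to 76.5 RPKM and *NQO1* at 63.4 to 68.5 RPKM, without overlap. The other neighbours kept their order of means. These levels use the length of all annotated exons of a gene, which is longer than most single transcripts, and uncounted bases shared with other genes, at most 18.6% in the genes ranked, lower them further.

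The genes whose course over the 6 libraries was most like that of *NFE2L2* were *RTRAF*, *MPZL1* and *AKAP13*, with root mean square differences of 0.00959, 0.0144 and 0.0151 in log2 CPM centred on each gene's mean. Nearest to *TXNRD1* were *GFPT1* (0.0219), *SEL1L* (0.0246) and *ZNF252P* (0.0289). *GFPT1* makes the first committed step of hexosamine synthesis and *SEL1L* is part of the machinery that removes misfolded proteins from the endoplasmic reticulum. The log2 fold changes of *GFPT1*, *SEL1L* and *ZNF252P* were 0.58, 0.54 and 0.55. Their closeness to that of *TXNRD1* follows from how these genes were picked.

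The stress response against which the 9 genes were set was followed through a list chosen with earlier results of these data known. Its counts are thus a description and no test. The list holds genes of the integrated stress response, the program that follows phosphorylation of eIF2α and is driven by ATF4. Of its 39 tested genes, 35 rose with DAPT and 0 fell (edgeR, adjusted p-value under 0.05). These are 89.7% and 0%, beside 17.2% and 18% of all tested genes. The median log2 fold change was 0.68, beside 0.01 over all genes. *INHBE* and *GDF15*, which encode secreted factors, had log2 fold changes of 2.13 and 1.86, and *CHAC1*, whose product degrades glutathione, of 2.07. *ASNS*, asparagine synthetase, had 1.97, though another gene on its strand covers 49.3% of its exonic bases. *ATF4*, named after its values were seen, rose from 147 ± 5.07 to 210 ± 11.1 CPM (SD, n = 3 each). *CEBPB* and *SLC7A1* were the most abundant genes of the list that did not pass, with log2 fold changes of 0.12 and 0.06. *CEBPB* passed after the correction for GC content (0.25) and was at -0.01 without control replicate 1. Without control replicate 1, 33 genes were higher and 0 lower, beside 2726 and 2892 of all 15162 genes tested in that setting.

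A wider set of 126 redox genes in 7 lists was written from general knowledge, with earlier results of these data known. Of these genes, 116 were tested. In this set 16 genes rose and 48 fell with DAPT (edgeR, adjusted p-value under 0.05), 13.8% and 41.4% of those tested, beside 17.2% and 18% of all genes. The median log2 fold change was -0.15, beside 0.01 over all genes. Without control replicate 1 the counts were 16 and 49, beside 2726 and 2892 of all 15162 genes tested in that setting. Of the 16, 3 (*CHAC1*, *SLC7A11* and *SLC3A2*, the last named after its values were seen) also belong to the stress response list, and without them 13 of 113 genes rose. In the lists below NRF2 targets are pointed out for some genes only, and a gene without that remark may also be one.

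**Figure D3:**
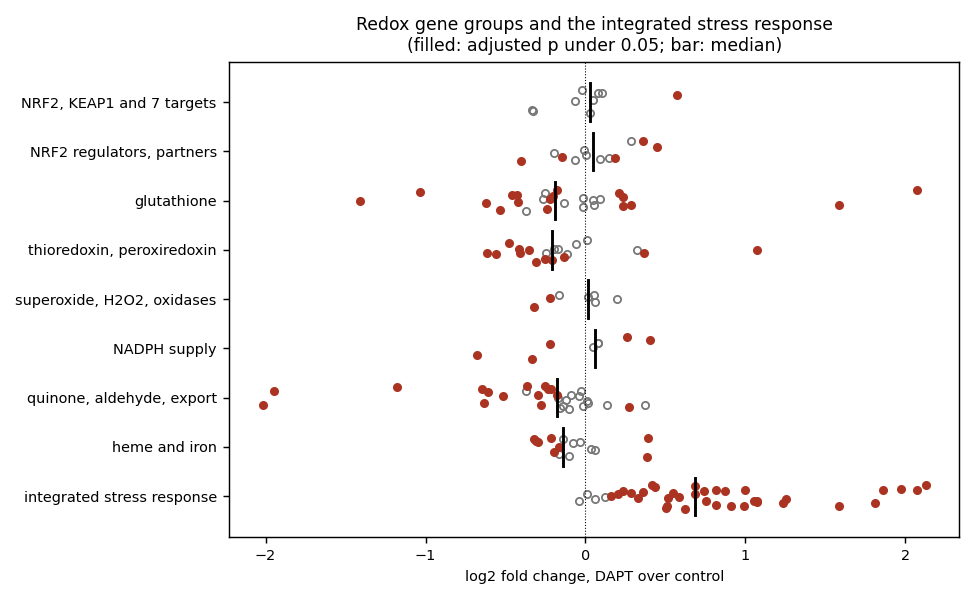
Log2 fold change of DAPT over control (x axis) for each tested gene of the 9 genes described here, of 7 redox lists and of the integrated stress response list (rows). Filled points have an adjusted p-value under 0.05 and black bars mark list medians, which are 0.03 for the 9 genes and 0.68 for the stress response.

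Among regulators and partners of NRF2, 3 of 12 rose and 2 fell. These are 25% and 16.7%, near the 17.2% and 18% of all tested genes. The percentages in the lists that follow stand beside the same 2 shares, and those of small lists rest on few genes. *SQSTM1*, which encodes the autophagy receptor p62 that can sequester KEAP1, rose from 259 ± 13.1 to 354 ± 6.57 CPM (log2 fold change 0.45), and *NFE2L1*, the relative of NRF2 that controls proteasome genes, from 515 ± 6.91 to 660 ± 17.9 CPM (0.36). *NFE2L3*, the third member of that family, fell from 60.0 ± 4.56 to 45.3 ± 1.21 CPM (-0.41). The calls of *BTRC* (0.18) and *DPP3* (-0.15) were lost in several alternatives. *MAFK* did not pass, with -0.01. *RBX1* narrowly missed the threshold at -0.20 (edgeR adjusted p = 0.0523), with every DAPT library below every control library. It passed in several alternatives, among them limma-voom and RLE factors. All SDs in the accounts of these lists are over 3 libraries per group.

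For the synthesis and use of glutathione, 6 of 26 tested genes rose and 11 fell (23.1% and 42.3%). The largest increases were those of *CHAC1*, from 5.02 ± 0.410 to 21.2 ± 1.44 CPM, and of *SLC7A11*, the cystine carrier that feeds glutathione synthesis. *SLC7A11* was at 21.5, 18.6 and 19.8 CPM with control and at 55.7, 60.1 and 64.2 CPM with DAPT, with no overlap and a log2 fold change of 1.58 ± 0.08 (SE, edgeR adjusted p = 1.28e-12). Both genes also belong to the stress response list, which does not say whether NRF2 also acts on them. *GPX4*, which reduces lipid peroxides, rose by a log2 fold change of 0.28 and *GPX8* by 0.23, the latter lost without control replicate 2, control replicate 3 or DAPT replicate 3. *GPX2*, an epithelial glutathione peroxidase and NRF2 target, fell from 18.8 ± 0.0946 to 7.06 ± 0.108 CPM (log2 fold change -1.41, edgeR adjusted p = 4.39e-10). The transferases *GSTO1* and *GSTM3* fell by 0.62 and 0.53 on the log2 scale, and *GGT1* by 1.03, though another gene covers 56.9% of the exonic bases of *GGT1*. *GPX1* and *GSS* did not pass, with -0.02 and 0.05, and the sign of *GPX1* changed between settings. *GSTM* genes are close copies of each other, and reads that map to several were not counted.

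In the thioredoxin and peroxiredoxin system, which *TXNRD1* serves, 2 of 19 genes rose and 10 fell (10.5% and 52.6%). *TXN*, thioredoxin itself and the substrate of the reductase, was at 413, 406 and 373 CPM with control and at 228, 296 and 287 CPM with DAPT. Every DAPT library was below every control library, opposite to *TXNRD1*, with a log2 fold change of -0.56 ± 0.09 (SE, edgeR adjusted p = 0.0014), which became -0.53 (edgeR adjusted p = 0.0518) without control replicate 1. *PRDX1*, a peroxidase that is recharged by thioredoxin, was at 517, 514 and 493 CPM with control and at 340, 384 and 372 CPM with DAPT (log2 fold change -0.48, edgeR adjusted p = 2.42e-07). *TXNIP*, the inhibitor that binds reduced thioredoxin, rose from 470 ± 16.8 to 987 ± 48.9 CPM (log2 fold change 1.07, edgeR adjusted p = 3.95e-13). *SELENOS*, a selenoprotein of the endoplasmic reticulum, had 0.37, while *SELENOW* had -0.62 and *TXNRD3* -0.42. *PRDX6* and *PRDX4* did not pass, with -0.06 and -0.17.

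**Figure D4:**
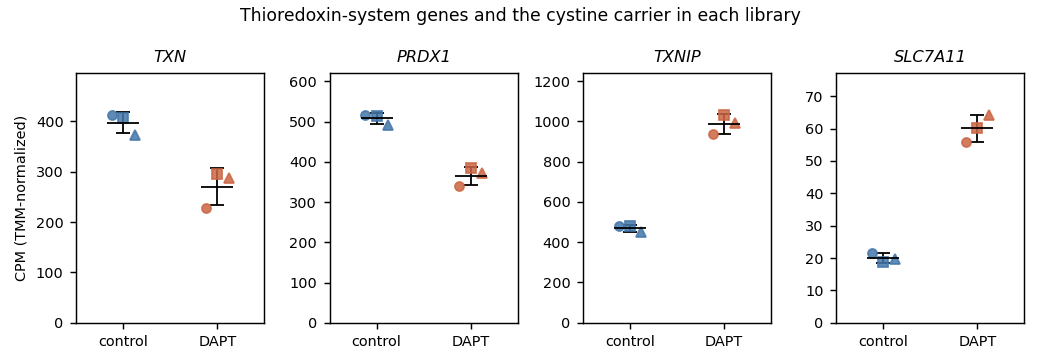
TMM-normalized CPM (y axis, from 0, a separate scale for each gene) of *TXN*, *PRDX1*, *TXNIP* and *SLC7A11* in each library, with replicates 1, 2 and 3 as circles, squares and triangles and bars for mean and SD. *TXN* and *PRDX1* are lower and *TXNIP* and *SLC7A11* higher in all 3 DAPT libraries than in any control library.

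Of the genes for superoxide dismutases, catalase and NADPH oxidases, 0 of 7 tested rose and 2 fell in edgeR (0% and 28.6%). The count of 0 depended on the setting, as 1 gene rose in 6 of the 16 alternatives, and without control replicate 1 the counts were 1 and 3. *DUOX2*, named after its values were seen, lay at the threshold, with a log2 fold change of 0.20 (edgeR adjusted p = 0.0502). The genes that fell were *SOD1*, from 130 ± 2.50 to 104 ± 2.74 CPM (log2 fold change -0.32), and *PARK7* (-0.22). *CYBA* (-0.16) and *CCS* (0.01) did not pass, and *CYBA* passed without control replicate 1 (-0.29, edgeR adjusted p = 0.000125, with adjusted p = 0.414 in all libraries). In the supply of NADPH, 2 of 8 genes rose and 3 fell (25% and 37.5%). *IDH1*, the cytosolic isocitrate dehydrogenase, rose by a log2 fold change of 0.26, while *MTHFD1* (-0.68), *TALDO1* (-0.33) and *TKT* (-0.22) fell. *PGD* and *ME1*, both NRF2 targets, did not pass, with 0.04 and 0.08.

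Enzymes for quinones, aldehydes and foreign compounds, with their exporters, gave 1 of 29 tested genes that rose (3.45%), 14 that fell (48.3%) and 14 that did not pass. Among the named genes, which have a mean of at least 1 CPM, the decreases were largest in aldo-keto reductases, a family that includes well-known human NRF2 targets. *AKR1B10* fell from 5.46 ± 0.595 to 1.42 ± 0.330 CPM (log2 fold change -1.94), *AKR1C1* from 3.39 ± 0.948 to 1.52 ± 0.0505 CPM (-1.18) and *AKR1C3* from 13.4 ± 0.501 to 8.61 ± 0.936 CPM (-0.64), each without overlap between the groups. These genes are close copies of neighbouring family members, so their counts are uncertain. The exporter *ABCC2* had -0.63, *TRIM16L* was the gene that rose (0.27), and *EPHX1* and *ALDH3A2* did not pass, with 0.01 and -0.09.

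In the handling of heme and iron, 2 of 15 tested genes rose and 6 fell (13.3% and 40%). The 2 were the subunits of ferritin, both known NRF2 targets. *FTH1* rose from 3465 ± 26.6 to 4550 ± 71.5 CPM (log2 fold change 0.39, edgeR adjusted p = 1.18e-06) and *FTL* from 682 ± 11.9 to 892 ± 38.1 CPM (0.39, edgeR adjusted p = 1.91e-06). The biliverdin reductases *BLVRB* and *BLVRA* had -0.32 and -0.29, the heme exporter *FLVCR1* -0.31 and the transferrin receptor *TFRC* -0.20. *ALAS1* and *IREB2* did not pass, with -0.08 and 0.06.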

How the data were processed

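RNA-seq libraries of HSC-4 cells, 3 with DAPT and 3 controls, were grouped by their sample labels. The authors trimmed 75 bp single-end reads, aligned these with HISAT2 (GRCh38) and counted exonic reads per gene with featureCounts 1.6.3 and Ensembl annotation 96, using the same-strand setting, and the deposited counts are raw and per library. By default, reads that map to several places or overlap several genes were not counted. Symbols were matched by identifier for 58472 of 58884 genes, and *SOD2* was not matched. Counts were tested with edgeR 4.0.16 in R 4.3.3 (filter by group with minimum count 10, TMM factors, robust quasi-likelihood fit, no block) with Benjamini-Hochberg adjustment over 15001 genes. Standard errors and 95% intervals come from the test statistic. Library totals of 12276313 to 16317672 limit precision for genes with few reads.

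The 9 genes and all lists were chosen with earlier results of these data known, and no p-value was adjusted over a list alone. From each list, the text names up to 4 genes per direction with the largest log2 fold change among those past the threshold, not overlapping between groups and averaging 1 CPM or more, and the 2 with the highest RPKM that did not pass. A gene that this rule names is not reported here. Likeness to *NFE2L2* and to the gene with the smallest adjusted p was taken over genes of at least 10 CPM, as log2 of CPM plus 0.5. The alternatives were DESeq2 1.42.0, limma-voom (limma 3.58.1), RLE factors, library size alone, no filter, a minimum of 10 counts per library, the fit without robust estimation, a replicate block, each library left out, and, added after the data were seen, an offset for GC content and length by splines of 5 degrees of freedom, with and without the block. The procedure was tested on simulated data.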

Additional observations from a re-analysis of the deposited data

How the results depend on the processing

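*TXNRD1* kept its direction and its adjusted p-value under 0.05 in the 16 alternatives. The number of the 9 genes called higher was 2 with library size alone and between 1 and 2 with a library left out. The number called lower was between 0 and 1 with a library left out. Among all tested genes, 3445 were called higher with library size alone. With a library left out, 1901 to 2726 of all tested genes were called higher and 2190 to 2892 lower. The second higher gene of the 9 was *NFE2L2*, at 0.152 with library size alone (adjusted p = 0.0139, edgeR) and between 0.0947 and 0.118 with a library left out. Leaving out libraries gave -0.537 to -0.11 for *SRXN1*, -0.0647 to 0.0126 for *GCLM*, -0.00116 to 0.057 for *NQO1*, -0.0254 to 0.0986 for *OSGIN1*, -0.542 to -0.0784 for *HMOX1* and -0.135 to -0.00546 for *KEAP1*. *GCLM* was at 0.0235 with library size alone, and *KEAP1* at 0.0343 with the GC correction and at 0.0333 with that correction and the replicate block. Among list genes that did not pass, *MAFK* was at 0.0356 with library size alone, 0.0698 with the GC correction, 0.0693 with that and the replicate block and between -0.0443 and 0.0402 with a library left out, and *GPX1* at 0.031, 0.106 and 0.105 under the same 3 settings. With a library left out, the range was -0.0659 to 0.0161 for *GPX1*, -0.0614 to 0.0741 for *CCS*, -0.00418 to 0.0884 for *PGD*, -0.0376 to 0.0688 for *EPHX1* and -0.0105 to 0.214 for *CEBPB*. The cause of these moves was not tested. Scaling by library size alone moved the median log2 fold change of all genes from 0.01 to 0.06 and the share of higher genes among all calls from 48.7% to 61.5%.

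The labels give replicate numbers but do not say that they mark shared cultures, and after subtracting group means, libraries sharing a number correlated at 0.0249, 0.0417 and 0.00408 across 15001 genes, so the replicate block is only an alternative. With it, the calls among the 9 genes were again 1 higher and 0 lower, those of the wider lists 16 and 48, those of the stress response 35 and 0, and those of all genes 2558 and 2737. The 44 named genes past the threshold kept their direction in all alternatives that gave a value, and 4 of them lost the threshold in at least 1. At this depth *HMOX1*, *SRXN1* and *OSGIN1* had at most 162 reads in a library, which limits what could be seen for them.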
